A study of Mus musculus with 2 samples.

Results

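Natural killer (NK) cells were picked out of single-cell RNA sequencing of the mouse colon, with 1 wild-type (WT) library and 1 library of mice lacking a long non-coding RNA, which the labels name LncRNA17Rik and the study calls lncLy6c (KO). The cells came from the gut lamina propria on a Percoll gradient, were sorted and labelled cd11b+, and the study describes C57BL/6J mice, young adult males pooled within a library, with the KO made by CRISPR-Cas9 deletion. No feature was matched to the deleted gene by identifier, so the deletion was not checked here. The members were chosen by transcripts: a cell that passed the study's filter (200 to 6000 genes, at most 15% mitochondrial unique molecular identifiers, UMIs) needed at least 2 UMIs summed over Ncr1, Klrb1c, Klre1 and Eomes, at least 1 UMI of Nkg7, fewer than 2 UMIs of Cd3e, Cd3d and Cd3g together and 0 UMIs of Cd79a, C1qa and Xcr1. The rule kept 61 of 5111 cells, 25 of 2597 in the WT library and 36 of 2514 in the KO library. These WT and KO cells gave 184046 and 170804 UMIs, with a median of 6031 and 4556.5 per cell. With 1 library per genotype no difference between genotypes could be tested and genotype cannot be told apart from library, cells are not replicates, and all intervals below are 95% intervals of counting error only.

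NK cells are innate lymphocytes that kill stressed or infected cells without an antigen receptor. Activating and inhibitory lectin-like receptors, encoded by the Klr genes, are read together, and the decision is carried out by perforin and granzymes released from granules and by mediators such as interferon gamma and the chemokines CCL3, CCL4 and CCL5, which draw in other leukocytes. Each NK cell switches on its own combination of Ly49 (Klra) receptors, and mouse NK cells are staged by CD27 and CD11b as they mature. T-box factors such as Eomes and T-bet, and RUNX factors, are known regulators of the lineage.

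Promoter sequence is shown for 4 genes that carry the results, a receptor of the rule (Ncr1), the pore-forming protein (Prf1), a cytokine (Ifng) and a chemokine (Ccl3), since the study followed RUNX3. The sequences are from RefSeq on GRCm38.p6, 250 bases before each transcription start, read 5′ to 3′ on the strand of the gene; Ncr1, Prf1 and Ifng lie on the plus strand and Ccl3 on the minus strand. The positions are chr7:4337465-4337714 for Ncr1, chr10:61297586-61297835 for Prf1, chr10:118440796-118441045 for Ifng and chr11:83649379-83649628 for Ccl3. Capitals mark the letters TGTGGT, the RUNX core motif, or ACCACA where it is read on the other strand.
Ncr1: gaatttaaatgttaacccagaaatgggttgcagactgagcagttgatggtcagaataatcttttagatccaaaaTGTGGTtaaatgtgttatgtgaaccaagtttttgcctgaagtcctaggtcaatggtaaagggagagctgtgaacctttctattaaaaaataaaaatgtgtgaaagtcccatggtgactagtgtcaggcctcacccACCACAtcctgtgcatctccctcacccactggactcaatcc
Prf1: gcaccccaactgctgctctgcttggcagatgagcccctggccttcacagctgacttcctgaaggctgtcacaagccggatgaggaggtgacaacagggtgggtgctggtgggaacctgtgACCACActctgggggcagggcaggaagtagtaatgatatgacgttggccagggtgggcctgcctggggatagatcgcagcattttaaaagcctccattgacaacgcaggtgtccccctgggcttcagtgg
Ifng: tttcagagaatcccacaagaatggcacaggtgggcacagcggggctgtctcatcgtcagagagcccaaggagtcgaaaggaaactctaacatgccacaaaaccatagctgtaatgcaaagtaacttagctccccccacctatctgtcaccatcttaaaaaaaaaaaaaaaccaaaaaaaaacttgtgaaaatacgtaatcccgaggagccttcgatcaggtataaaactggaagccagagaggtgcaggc
Ccl3: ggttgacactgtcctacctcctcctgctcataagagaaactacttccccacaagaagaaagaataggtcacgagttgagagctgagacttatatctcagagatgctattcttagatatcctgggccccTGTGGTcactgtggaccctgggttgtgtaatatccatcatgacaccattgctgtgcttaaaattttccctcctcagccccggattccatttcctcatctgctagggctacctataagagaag
The Ncr1 window held the RUNX letters at 2 places, the nearer of which ended 36 bases before the start, and the Prf1 and Ccl3 windows held them at 1 place each, ending 125 and 117 bases before the start. The Ifng window did not hold them. The T-box letters GGTGTG, searched on both strands like the RUNX letters, were in none of these 4 windows. Windows of this length held the RUNX letters in 14.2% of the 27025 genes in the table and the T-box letters in 16.2%. The 2 motifs can overlap by their shared GGT or TGTG letters. A match is a stretch of letters and not a measured binding site.

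The NK cells were few in both libraries, and the interval of the KO to WT ratio of their shares included no difference. They made up 0.963% of WT cells (exact binomial interval 0.624 to 1.42%) and 1.43% of KO cells (1.00 to 1.98%). The KO share was 1.49-fold the WT share, with an interval of 0.869 to 2.59 that includes no difference. Without 5 WT cells with epithelial or T cell transcripts, described below, the log2 ratio of the shares was 0.89 (0.07 to 1.76). The limits behind this value took out WT cells only, so the ratio could only rise, and its interval is not read as a difference. T cells, defined by at least 2 Cd3 UMIs, fewer than 2 UMIs of the summed NK markers and 0 UMIs of Cd79a, C1qa and Xcr1, numbered 178 in WT and 80 in KO. The NK share of NK and T cells together was therefore 12.3% in WT (8.13 to 17.6%) and 31.0% in KO (22.8 to 40.3%). These shares carry whatever the sort let through.

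The rule's own genes describe the members without testing them. The marker sum had a median of 6 UMIs in WT cells, from 2 to 15, and of 7 in KO cells, from 3 to 13. Just inside the threshold were 3 WT cells and 0 KO cells with a sum of exactly 2 UMIs, and just outside it 2 cells in each library with a sum of 1. One Cd3 UMI was present in 3 WT members and 1 KO member. A larger group lay beyond that limit, 24 WT and 4 KO cells that met every other condition and had 2 or more Cd3 UMIs. The Nkg7 condition alone kept out 2 WT and 8 KO cells, and the condition on Cd79a, C1qa and Xcr1 alone 0 WT and 2 KO cells. KO members were thus chosen in part by a granule gene. Ncr1, the activating receptor NKp46, had a UMI in 12 of 25 WT and 14 of 36 KO cells, at 92.4 and 105 CPM (UMIs of a gene per 1000000 UMIs of the summed cells). Eomes, a T-box factor of NK cells, was at 310 and 773 CPM in WT and KO, and Nkg7, a granule membrane protein, at 1076 and 2453 CPM.

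The name was checked on genes that the rule did not read. Il2rb, a receptor chain for interleukin 15, had a UMI in all 25 WT and all 36 KO cells. The KO cells also had Tyrobp and Klrd1 (CD94) in 35 and 31 cells, and the WT cells in 22 and 21. T cells carry these genes too, with Il2rb in 84.3% of WT and 75% of KO T cells, Klrd1 in 50.6% and 36.2% and Tyrobp in 29.2% and 20.0%, and the Klrd1 level was higher in WT T cells (383 CPM) than in WT NK cells (315 CPM). Of 12 markers of the innate lymphoid cells ILC2 and ILC3, 10 were at 0 in each library, among them Il22, Il17a, Il5 and Il13. Areg had 11 UMIs in 3 WT cells, Il1rl1 had 3 UMIs in 2 KO cells, and 1 WT cell had at least 5 UMIs of the list. Among the members, 1 WT cell with 2 Kit, 3 Rora and 8 Tcf7 UMIs had 0 UMIs of Eomes, Gzma, Gzmb, Prf1, Irf8 and Tyrobp. The same 6 genes were at 0 in 1 KO cell with 5 Rora UMIs. Il7r, the interleukin 7 receptor of most ILCs, had 3 UMIs in WT and 0 in KO. Of the other ILC1 markers Tnfsf10, Cd200r1 and Zfp683 were at 0 in both, Itga1 had 5 and 1 UMIs and Cxcr6 6 and 0. The integrin gene Itga2 had a UMI in only 4 of 25 WT and 11 of 36 KO members, and in 5.06% of WT and 1.25% of KO T cells. Genes of tissue residence and activation that ILC1 share were present, with Rgs1 at 154 and 162 UMIs and Cd69 at 58 and 79. Itgam, which encodes the sorted protein CD11b, had a UMI in 9 WT and 20 KO cells, so the label was visible in the RNA of a part of the members only.

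Transcripts of other lineages were unevenly spread over the members. The deepest WT cell held 34014 UMIs, of which 207 were from Krt8 and 341 from Car1, genes of the colon epithelium, and a second WT cell held 15 Krt8 UMIs. The epithelial list of 12 genes summed to 692 UMIs in WT, 662 of them in that deepest cell, and to 2 UMIs in KO. A WT cell of 15857 UMIs had 15 UMIs of the T cell receptor constant gene Trbc2, 23 of Gzmc, 26 of Rora, 99 of Plac8 and 14 of the proliferation gene Mki67, and in all 3 WT cells had at least 3 Trbc2 UMIs. Trbc1 and Cd28, of the same T cell list, had a UMI in 22 and 17 WT members and in 26 and 6 KO members, and set no limit here. No KO member reached 10 epithelial or 3 Trbc2 UMIs. Results that this changed are therefore also given for the 20 WT cells below both limits, that is without 5 mixed WT cells; the limits were set after the data had been seen. Myeloid transcripts did not follow that order. The dendritic cell markers without Itgax (27 and 16 UMIs), 11 genes, summed to 119 UMIs in WT, 51 of them in 1 cell, and to 104 UMIs in KO, with at least 5 UMIs in 4 of 25 WT and 9 of 36 KO cells. Most were of the class II genes Cd74, H2-Ab1 and H2-Aa, while Flt3, Clec9a and Siglech were at 0 in both libraries and Zbtb46, a factor of conventional dendritic cells, had a UMI in 4 WT and 8 KO cells. Of the 16 macrophage and monocyte markers, Plac8, Ly6c2 and Ccr2, which lymphocytes also use, had 202, 14 and 34 UMIs in WT and 2, 82 and 18 in KO. The other 13 summed to 11 UMIs in WT and 20 in KO, with at most 3 in a cell. Lyz2, the myeloid lysozyme, had a UMI in 2 WT and 12 KO cells. The part of these transcripts in the results was not tested. B cell RNA was spread over all WT members. The light chain gene Igkc had a UMI in 25 of 25 WT and 3 of 36 KO members, and in 95.9% of WT and 16.0% of KO C1q macrophages, which do not make it. The median mitochondrial share was 3.42% in WT and 2.37% in KO members. The 2 libraries had 1 barcode in common, which was not an NK cell.

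**Figure D1:**
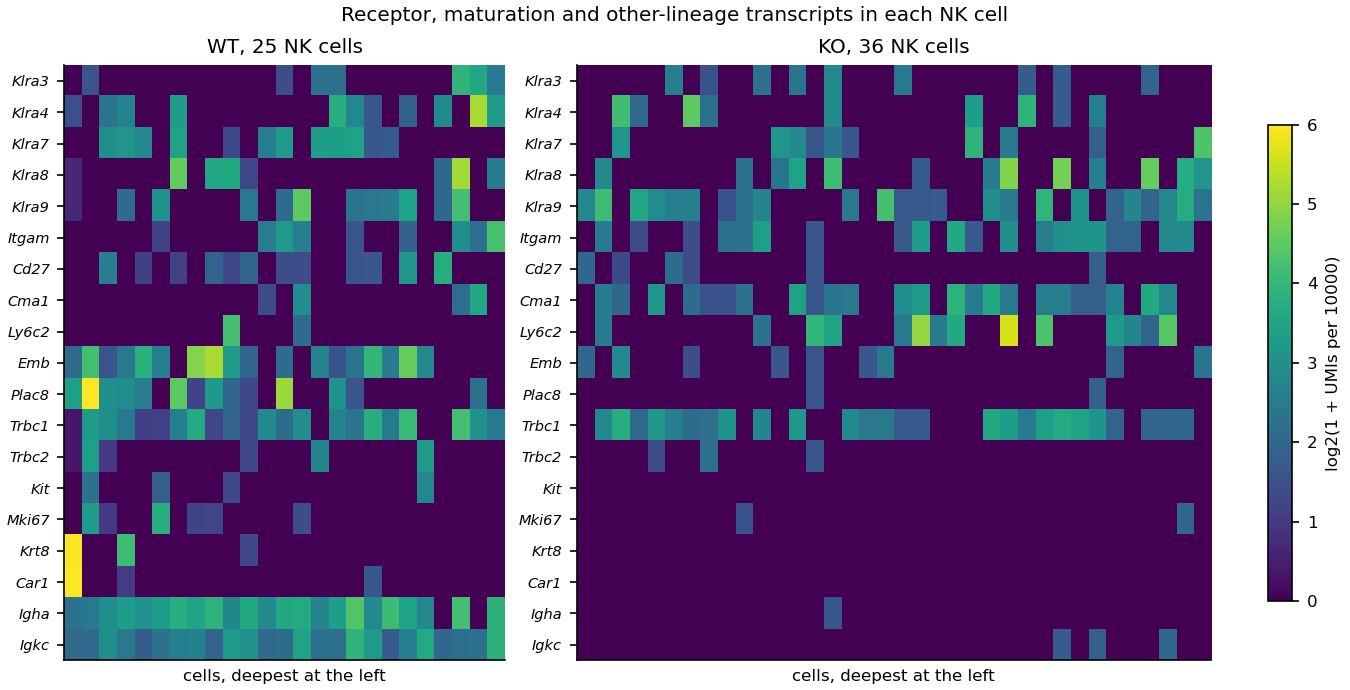
Each column is 1 NK cell, ordered from the deepest at the left, and each row a gene; colour gives log2(1 + UMIs per 10000 UMIs of the cell), capped at 6. The epithelial genes Krt8 and Car1 are bright in the deepest WT cell, Igha and Igkc fill the WT rows and are almost empty in the 36 KO cells, and the Klra genes form a different combination from cell to cell.

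Ly49 receptors were patchy in both genotypes, as single cells show in the heat map of receptors. Klra4, Klra8 and Klra9 encode the Ly49 receptors D, H and I, and Klra3 and Klra7 the receptors C and G. Klra8 had a UMI in 8 of 25 WT and 13 of 36 KO cells, and the highest cell held 18 UMIs in WT and 12 in KO. Klra4 had one in 11 WT and 9 KO cells, Klra7 in 12 and 10, Klra3 in 7 and 9, and Klra9 in 12 and 24. A UMI of none of these 5 genes was found in 2 cells of each library, and of 3 or more in 10 WT and 7 KO cells. These reads may be divided between near-identical Klra copies, so a single Klra count is uncertain.

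For the comparison of genotypes, UMIs were summed over the NK cells of each library, and 2710 genes with at least 20 UMIs over both were compared as the log2 ratio of KO to WT CPM with 10 CPM added to each. Of these, 182 genes (6.72%) were at least 2-fold higher in KO and 231 (8.52%) at least 2-fold lower, and the median log2 ratio was 0.05. Without the 5 mixed WT cells these counts were 146 and 100. With fewer UMIs the number of genes that reach 20 can only fall, so these 2 counts are not shares of the 2710. Intervals of a ratio are exact and for the CPM as measured, with nothing added.

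The mediators that NK cells release stood highest. All 5 tested genes of a list of 11 cytokines and chemokines were at least 2-fold higher in KO, against 6.72% of all genes, and their median log2 ratio was 2.17. Ccl4, a chemokine that draws in macrophages and T cells, had 117 UMIs (636 CPM) in WT and 2286 UMIs (13384 CPM) in KO, 21.1-fold more with an interval of 17.5 to 25.6. Ccl3, a closely related chemokine, was 12.7-fold higher (9.60 to 17.1), at 293 and 3724 CPM. Ccl5 was 4.51-fold higher (4.15 to 4.90) at 3836 and 17300.5 CPM, and Ifng, the macrophage-activating interferon gamma, 4.17-fold higher (3.12 to 5.63) at 326 and 1358 CPM. Xcl1, which attracts cross-presenting dendritic cells, was 2.18-fold higher (1.66 to 2.88). With the 20 WT cells the log2 ratios were 3.77 for Ccl4, 2.98 for Ccl3, 1.68 for Ccl5, 1.45 for Ifng and 0.72 for Xcl1. On GRCm38 the 3 Ccl genes lie near each other on chromosome 11, Ccl5 at chr11:83525778-83530518 and Ccl3 at chr11:83647844-83649355 on the minus strand and Ccl4 at chr11:83662584-83664683 on the plus strand, and Ifng lies at chr10:118441046-118445892 on the plus strand. Tnf, with 5 WT and 2 KO UMIs, was too low to compare, as were Ltb, Il10 and Flt3l, and Csf2 and Lta had no UMI.

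Single cells showed these differences over most of the KO set. Ccl4 per 10000 UMIs ran from 0 over a median of 3.77 to 126 in WT cells and from 0 over 67.4 to 1041 in KO cells. The libraries overlapped, although 34 of 36 KO cells lay above the WT median and 11 above the highest WT cell. Ccl3 had no UMI in 16 of 25 WT cells and in 1 of 36 KO cells, with medians of 0 and 20.2. One KO cell held 551 of the Ccl4 and 160 of the Ccl3 UMIs, 24.1% and 25.2% of the KO sums. When the cell with the most UMIs of the gene was left out of each library, the log2 ratios were 4.52 for Ccl4 and 3.58 for Ccl3. Ccl5 had medians of 19.6 and 158, and Ifng of 2.95 and 12.1. A UMI of each of Ccl3, Ccl4 and Ccl5 was present in 8 WT and 34 KO cells, and of both Ifng and Ccl4 in 12 WT and 32 KO cells.

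**Figure D2:**
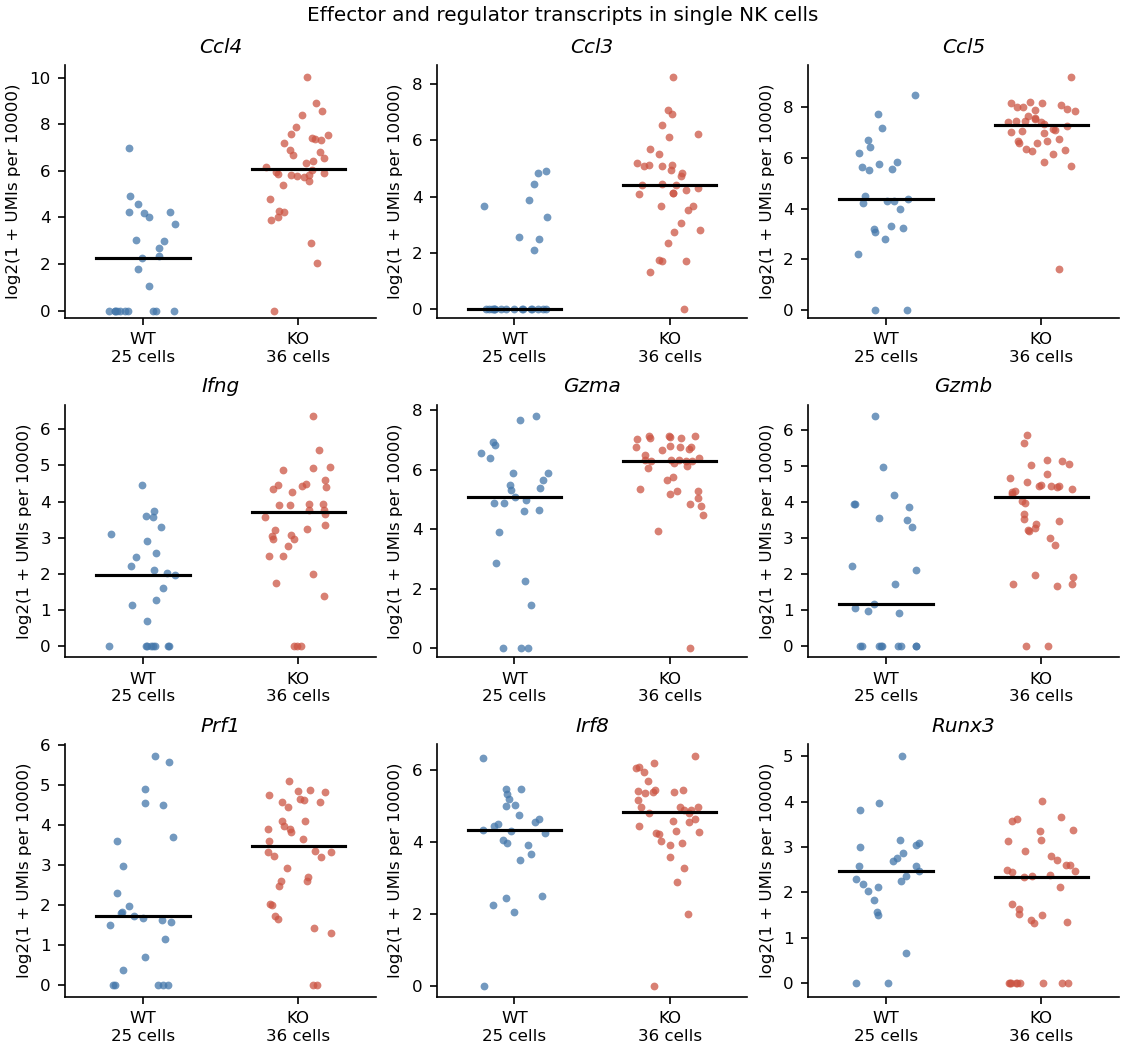
Each point is 1 NK cell, with log2(1 + UMIs per 10000) on the vertical axis and WT (25 cells) and KO (36 cells) side by side for 9 genes; black lines are medians. KO cells sit higher for the chemokines, Ifng, Gzmb and Prf1, with overlap in every panel, and Runx3 lies at a similar height in both, with medians of 4.51 and 4.10 UMIs per 10000.

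Because depth differed, every cell of at least 2000 UMIs was also thinned to 2000 UMIs, which left out 0 members. The share of cells with a Ccl4 UMI was then 40.0% in WT (21.1 to 61.3%) and 97.2% in KO (85.5 to 99.9%), and was 60.0% and 97.2% before thinning. The thinned Ifng share was 48.0% in WT (27.8 to 68.7%) and 83.3% in KO (67.2 to 93.6%), and 68.0% and 91.7% before thinning. The intervals of Ccl4 did not overlap and those of Ifng did by a small margin. This describes counting error over the cells of 1 library each and is no test between genotypes. In B cells, which served as the background of free RNA, 10.9% of WT cells and 20.2% of KO cells had a Ccl4 UMI at median depths of 10004 and 4577 UMIs, and 0.800% and 0% an Ifng UMI. The 0 of 94 KO B cells has an exact upper bound of 3.85%. C1q macrophages, which make CCL4 themselves, reached a Ccl4 level of 803 CPM (WT) and 6099 CPM (KO). Their Ccl3 level was 352 CPM (WT) and 1590 CPM (KO), and their Ccl5 level 180 and 460 CPM. Each of these chemokine genes was therefore also higher in KO macrophages, outside the NK cells. The part of free RNA in the NK values was not tested.

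Genes of the killing machinery differed in both directions. Of 13 tested genes of the 22-gene granule list, 3 were at least 2-fold higher (Srgn, Gzmb and Prf1), 1 at least 2-fold lower (Ctsc, log2 ratio -1.05) and 9 in between, against 6.72% higher and 8.52% lower over all genes, with a median log2 ratio of 0.59. Srgn, the proteoglycan that packs granules, was 2.57-fold higher (2.20 to 3.01), Gzmb 2.41-fold (1.95 to 2.98) and Prf1 2.02-fold (1.60 to 2.56). Gzma, the most abundant granzyme here, had 750 UMIs (4075 CPM) in WT and 1313 UMIs (7687 CPM) in KO, 1.89-fold higher (1.72 to 2.07). In single cells Gzma per 10000 UMIs ran from 0 over 32.9 to 220 in WT and from 0 over 77.9 to 140 in KO, so the highest cell was WT. All of Gzma, Gzmb and Prf1 were detected in 14 of 25 WT and 33 of 36 KO cells. The difference shrank with the 20 WT cells, to log2 ratios of 1.13 for Srgn, 0.57 for Gzma, 0.81 for Gzmb and 0.41 for Prf1, the last 2 then under 2-fold. Without the cell with the most UMIs of the gene in each library, it was larger. The log2 ratios were then 1.38 for Srgn, 1.15 for Gzma, 1.76 for Gzmb and 1.42 for Prf1. The highest WT cell held 37.1% of the WT UMIs for Gzmb and 32.5% for Prf1. Fasl, the death ligand, was 1.90-fold higher (1.23 to 2.99), and Serpinb9, which guards the cell against its own granzyme B, 1.51-fold (1.23 to 1.85), and both intervals included no difference with the 20 WT cells. Gzmc was lower in KO, at 32 and 15 UMIs, but 23 of the WT UMIs were in 1 cell and the sign turned with the 20 WT cells. Gzmd, Gzme, Gzmf and Tnfsf10 had no UMI.

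Genes of activating signalling were split. Cd247, Fcer1g and Tyrobp, the signal chains CD3 zeta, FcR gamma and DAP12 through which activating receptors work, were 3.11-fold (1.76 to 5.75), 2.50-fold (2.04 to 3.09) and 2.09-fold (1.75 to 2.50) higher in KO. Their log2 ratios with the 20 WT cells were 1.39, 1.00 and 0.69, so Tyrobp was then under 2-fold. Hcst (DAP10), the partner of NKG2D, was at 549 and 580 CPM, and its receptor Klrk1 (NKG2D) at 386 and 427 CPM, both with intervals that include no difference. The kinases and linkers downstream, Syk, Zap70, Lck, Fyn and Lcp2, all had intervals that include no difference. Of the 13 tested genes of this list, 5 were at least 2-fold higher (the others were Plcg2 and Lat) and 0 lower, against 6.72% and 8.52% of all genes. Without the 5 mixed WT cells the list's median log2 ratio moved from 0.42 to -0.08.

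For the lectin receptors, the shares past 2-fold were near those over all genes. Of the 20 listed genes 11 were tested, 1 was at least 2-fold higher (Klri2) and 0 were lower, against 6.72% and 8.52% of all genes, with a median log2 ratio of 0.46. Klra9 was 1.82-fold higher in KO (1.24 to 2.69), Klrb1b, an inhibitory NKR-P1 receptor, 1.96-fold (1.35 to 2.89), and Klrd1, the CD94 chain of the NKG2 receptors, 1.49-fold (1.05 to 2.12). Klra7 went the other way, with 53 UMIs (288 CPM) in WT, 30 UMIs (176 CPM) in KO and a log2 ratio of -0.68 (-1.41 to -0.04). Klra4 had a log2 ratio of -0.02 (-0.64 to 0.60) and Klra8 of 0.46 (-0.09 to 1.04). With the 20 WT cells the intervals of Klra9, Klrd1 and Klri2 included no difference, Klri2 was under 2-fold at 0.65, Klra8 had a log2 ratio of -0.13 (-0.70 to 0.44) and Klra7 was at -0.97 (-1.74 to -0.29). Klra1, with 6 UMIs in WT and 0 in KO, Klrb1a, Klrb1f and Klrg1 stayed under 20 UMIs.

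Receptors for the cytokines that arm NK cells pointed upward in KO. Il18rap, a chain of the interleukin 18 receptor, was 4.11-fold higher (2.67 to 6.53), with a UMI in 17 WT and 26 KO cells. Its partner Il18r1 had a log2 ratio of 0.84 (-0.02 to 1.90). Il12rb2, of the interleukin 12 receptor, was 2.16-fold higher (1.12 to 4.31), and Il2rb 1.74-fold (1.5 to 2.02). With the 20 WT cells the log2 ratio was 1.68 for Il18rap, and 0.51 (-0.42 to 1.57) for Il12rb2. Cish, an inhibitor of cytokine signalling induced by STAT5, had 13 UMIs in WT and 36 in KO. Stat4, which relays interleukin 12, had a log2 ratio of 0.30 (-0.34 to 0.97). Over the list, 3 of 13 tested genes were at least 2-fold higher, against 6.72% of all genes, with a median log2 ratio of 0.76.

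**Figure D3:**
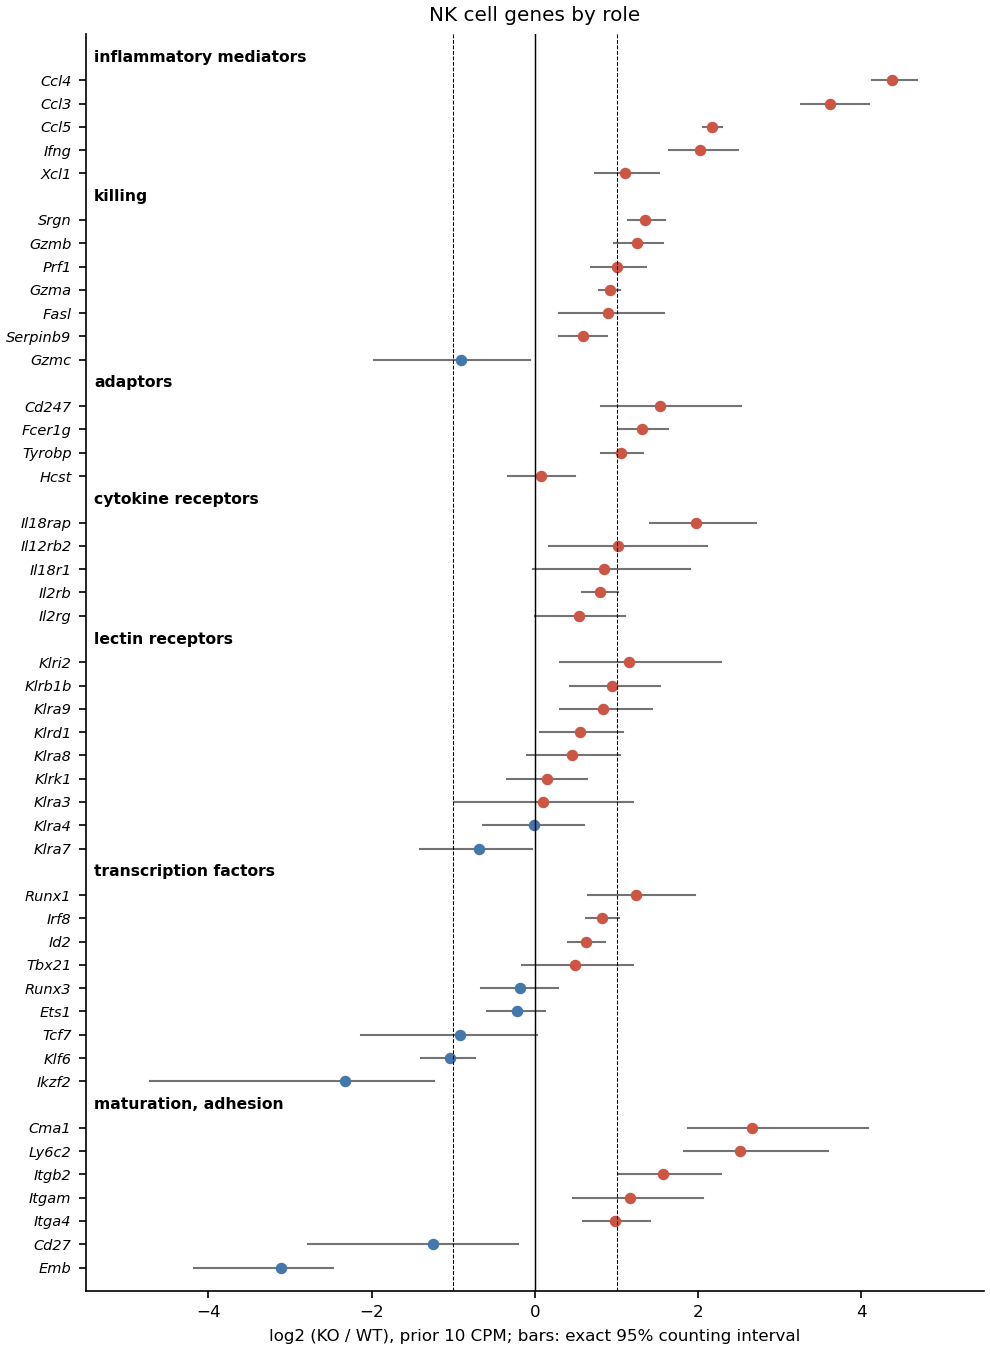
Points give the log2 ratio of KO to WT with 10 CPM added, bars the exact 95% counting interval of the unadjusted ratio, and dashed lines a 2-fold difference, for genes grouped by role. Ccl4 and Ccl3 lie farthest right, followed by Cma1, Ly6c2, Ccl5 and Ifng, most lectin receptors and transcription factors lie within the 2-fold lines, and Emb and Ikzf2 lie farthest left.

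For transcription factors of the NK lineage, the shares past 2-fold were near those over all genes. Of 19 tested genes without Eomes, which the rule used, 1 was at least 2-fold higher (Runx1), 2 were at least 2-fold lower (Ikzf2 and Klf6) and 16 were in between, against 6.72% higher and 8.52% lower over all genes, with a median log2 ratio of 0.01. Runx3, which the study followed in macrophages, stood at 473 CPM (WT) and 416 CPM (KO), a log2 ratio of -0.18 (-0.66 to 0.28). With the 20 WT cells its log2 ratio was -0.56 (-1.07 to -0.08), so the interval then left out no difference. Runx3 had a UMI in 23 of 25 WT and 27 of 36 KO cells, and after thinning in 64.0% and 47.2%. Its relative Runx1 was 2.44-fold higher in KO (1.57 to 3.89), but under 2-fold with the 20 WT cells, at a log2 ratio of 0.86 (0.21 to 1.61). Irf8, of the interferon regulatory factor family, was at 1722 and 3050 CPM, 1.77-fold higher (1.54 to 2.04). Tbx21, which encodes T-bet, had a log2 ratio of 0.49 (-0.16 to 1.2), and Id2 was 1.55-fold higher (1.32 to 1.81). The log2 ratios of Irf8 and Id2 with the 20 WT cells were 0.39 and 0.32. Klf6 had a log2 ratio of -1.05 over all members, but of -0.20 (-0.62 to 0.22) with the 20 WT cells. Ikzf2 (Helios) had 29 UMIs in 9 WT cells and 4 UMIs in 3 KO cells.

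Markers of maturation differed in both directions, with 4 of 8 tested genes at least 2-fold higher in KO (Cma1, Ly6c2, Itgam and Spn) and 2 at least 2-fold lower (Cd27 and Emb), against 6.72% and 8.52% of all genes. Cd27, which falls as mouse NK cells mature, had 23 UMIs in 12 WT cells and 8 UMIs in 6 KO cells, 2.67-fold lower in KO (1.15 to 6.90). Itgam, which rises, was 2.36-fold higher (1.38 to 4.16). With the 20 WT cells the log2 ratio of Cd27 was -1.87 (-3.45 to -0.87), and that of Itgam was 0.55 with an interval of -0.20 to 1.39 that includes no difference. Itgam without Cd27 was seen in 5 of 25 WT and 17 of 36 KO cells, Cd27 without Itgam in 8 WT and 3 KO cells, both in 4 and 3, and neither in 8 and 13. At these depths a missing UMI does not show that a cell lacks the transcript, and after thinning Cd27 was found in 2 WT and 4 KO cells at 2000 UMIs and in 3 cells of each library at 1000 UMIs, too few to give an order. Cma1, a chymase gene best known from mast cells, had 9 UMIs in 4 WT cells and 62 UMIs in 24 KO cells, 7.42-fold higher (3.67 to 17.0), and had no UMI in the B cells, T cells or C1q macrophages of either library. The 13 granulocyte and mast cell markers summed to 0 UMIs in WT and 9 UMIs in KO members. Ly6c2, an antigen found on mature NK and memory T cells as well as monocytes, was in 2 WT and 14 KO cells, and 12 of its 14 WT UMIs were in 1 cell. Emb, which encodes the surface glycoprotein embigin, was 9.61-fold lower in KO (5.55 to 18), with a UMI in 18 of 25 WT and 9 of 36 KO cells. S1pr5, Cx3cr1 and Klrg1, of circulating NK cells, had 0, 3 and 4 UMIs in WT and 4, 7 and 11 in KO. Itgb2, the beta chain that pairs with CD11b, was 3.09-fold higher (2.02 to 4.85) and Itga4 1.99-fold (1.51 to 2.65), and with the 20 WT cells their log2 ratios were 0.98 and 0.71. Itga2 was 4.31-fold higher (1.72 to 12.9), at a log2 ratio of 2.07 with the 20 WT cells. Over the homing and integrin list, 1 of 12 tested genes was at least 2-fold higher and 0 were lower, against the same shares of all genes.

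By size alone, with a minimum of 30 UMIs in all and of 5 cells with a UMI in the higher library, the 10 highest in KO were Ccl4, Ccl3, Cma1, Ly6c2, Scd2, Bcl2a1d, Tulp4, Ccl5, Hist1h1c and Ifng. Scd2, a fatty acid desaturase, was 6.29-fold higher (2.62 to 18.3), and Bcl2a1d, of the anti-apoptotic A1 family whose copies are nearly identical, 5.63-fold (2.73 to 13.1). Tulp4 had a UMI in 13 of 25 WT and 31 of 36 KO cells and was 4.95-fold higher (3.10 to 8.24). Hist1h1c, a linker histone, was 4.93-fold higher (2.14 to 13.2). Among the 10 lowest were Igha, Plac8, Igkc, Dstn, Hk2, Emb, Mt1, Lgals3 and Lgals3bp.

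Several of the low genes moved with single WT cells or with the B cell RNA described above, whose part in them was not tested. Igha and Igkc are antibody genes, at 804 and 494 CPM in WT and 5.85 and 17.6 CPM in KO members, and T cells had 684 and 1347 CPM in WT and 16.8 and 29.8 CPM in KO. Dstn, Mt1 and Lgals3, an actin-severing protein, a metallothionein and a galectin of epithelium and myeloid cells, had log2 ratios of -4.17, -3.08 and -3.02 over all members and of -0.72, -0.67 and -0.31 with the 20 WT cells. Plac8 had 202 UMIs in 14 WT cells, 99 of them in 1 cell, and 2 UMIs in 2 KO cells. It remained low with the 20 WT cells, at a log2 ratio of -4.69. Hk2, the first enzyme of glycolysis, had 59 UMIs in 11 WT cells and 2 in 2 KO cells, 27.4-fold lower in KO (7.25 to 231), and its log2 ratio was -3.26 with the 20 WT cells. Emb had a log2 ratio of -3.20 there. Plac8 was also lower in KO T cells, at 673 and 166 CPM, whereas Hk2 stood at 134 and 166 CPM and Emb at 1456 and 2042 CPM in WT and KO T cells.

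**Figure D4:**
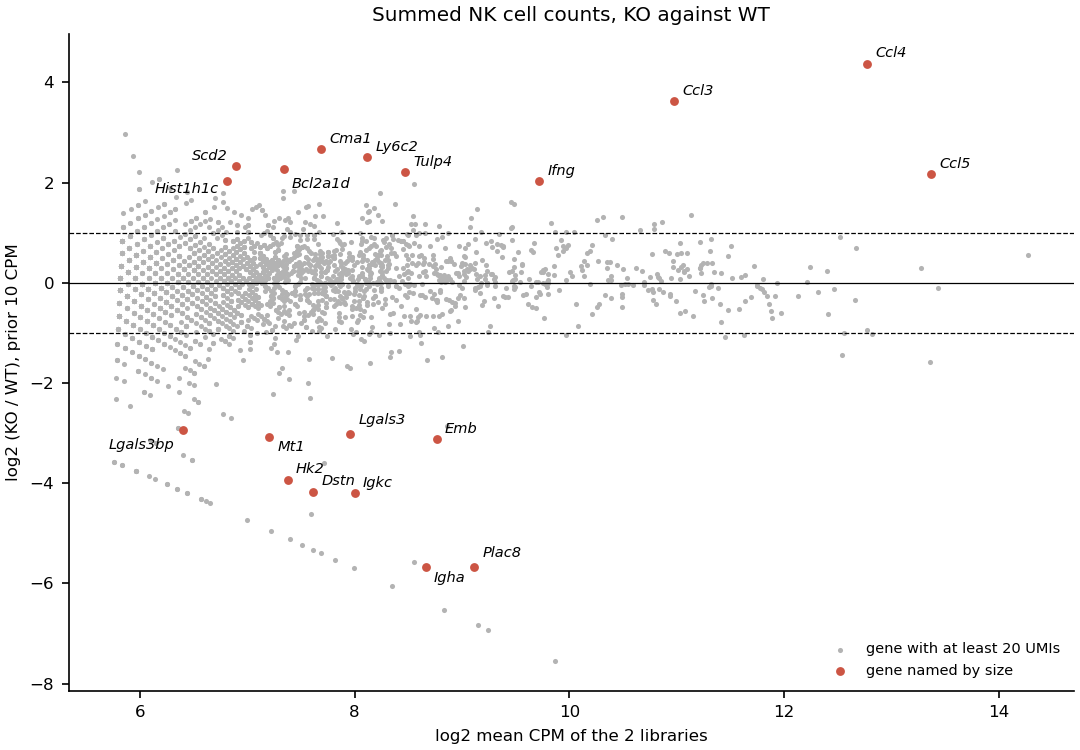
Each point is 1 of 2710 genes with at least 20 UMIs, placed by the log2 of its mean CPM over both libraries and by its log2 ratio of KO to WT with 10 CPM added; dashed lines mark a 2-fold difference and red points the genes named by size. Ccl4, Ccl3 and Ccl5 combine high level with high ratio, and the sloping line of points at the lower left is made of genes with no UMI in the KO cells.

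Genes that the study followed in macrophages were also read in NK cells. Zfp36, which encodes an mRNA-destabilising protein, was 3.0-fold lower in KO (2.03 to 4.51), with a UMI in 20 of 25 WT and 16 of 36 KO cells, and the log2 ratio was -1.54 with all WT cells and -1.38 with 20. Nr4a1, an orphan nuclear receptor induced by activation, was at 962 and 820 CPM, with a log2 ratio of -0.23 (-0.56 to 0.10) with all WT cells and of -0.70 (-1.05 to -0.37) with 20. Jund, an AP-1 subunit, was 2.32-fold higher (1.96 to 2.75). Of the 7 MAPK-related genes of the study 5 were tested, 2 of them at least 2-fold higher (Jund, and Hspa1a with UMIs in 1 WT and 4 KO cells) and 0 lower, against 6.72% and 8.52% of all genes. Il1b had 3 and 5 UMIs.

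Against the T cells of the same library, 4118 genes outside the rule had at least 20 UMIs over both cell types in each library and were compared. In both libraries 85 (2.06%) were at least 2-fold higher in NK cells and 140 (3.40%) at least 2-fold lower. The cells of both sets were chosen by Cd3 and NK transcripts, so the contrast is a description. Lectin receptors led, with 9 of 10 tested at least 2-fold higher in NK cells of both libraries. Klra8 had 49 UMIs in WT and 63 in KO NK cells and 0 in the T cells of either library, and Klra4 had 48 and 44 against 0 and 0. Irf8 had log2 ratios of NK to T of 4.63 in WT and 5.96 in KO, and Prf1 of 4.44 and 6.18. Others among the 15 highest were Klra9, Klrb1b, Klrc1 and Klri2, the granzyme inhibitors Serpinb9 and Serpinb9b, the angiogenic factor Vegfa (217 and 433 CPM in NK cells), the tetraspanin Cd9, Atp1b1, Gem and Arsb. Of these 85 genes 68 had a promoter sequence, which held the RUNX letters in 14.7% and the T-box letters in 22.1%, against 9.98% and 14.3% of the tested genes with a sequence. For the 182 genes at least 2-fold higher in KO NK cells, 147 had a sequence. It held the RUNX letters in 8.16% and the T-box letters in 17.0%, against 9.61% and 14.3% of the genes tested between genotypes.

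The 10 lowest were Tnfsf11, Bcl11b, Ramp3, Ifi27l2a, Ccr7, Tnfsf8, Cd5, Gm8369, Cd4 and Ctla4, several of them T cell genes. Bcl11b, a T cell identity factor, had 2 UMIs in each NK set against 210 and 122 in T cells. Tnfsf11 (the ligand RANKL), Tnfsf8, Cd5, Cd4 and Gm8369 had no UMI in NK cells of either library, and Ramp3, Ifi27l2a, Ccr7 and Ctla4 had none in KO NK cells. Ctla4, a T cell checkpoint, had 23 UMIs in 5 WT NK cells. Of 12 tested T cell markers 9 were at least 2-fold lower in NK cells of both libraries. The T cell receptor constant gene Trbc1 was not, at 446 and 451 CPM in WT and KO NK cells against 472 and 573 CPM in T cells. The Cd3 genes are not read here, since the rule limited their UMIs.

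**Figure D5:**
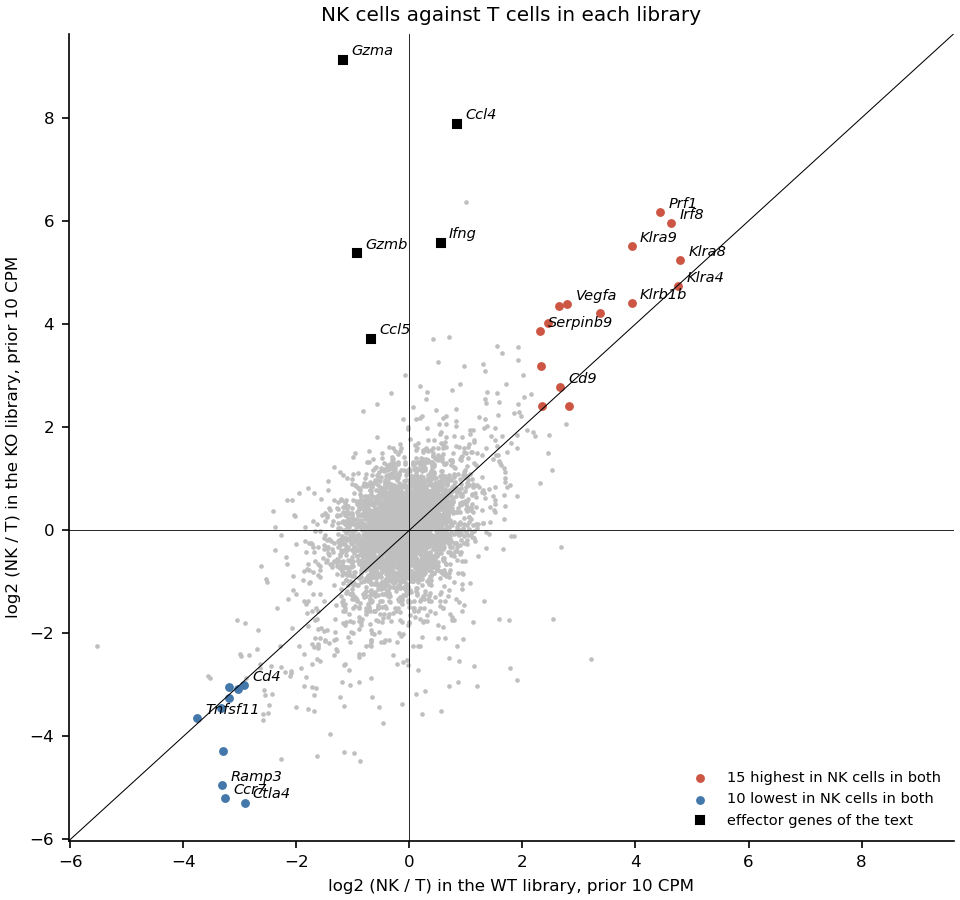
Each point is a gene, placed by its log2 ratio of NK to T cells in the WT library (horizontal) and the KO library (vertical), each with 10 CPM added; the diagonal marks equal ratios. Lectin receptors, Prf1 and Irf8 lie high in both libraries and Ccr7, Ctla4 and Tnfsf11 low in both, whereas Gzma, Gzmb, Ccl4, Ccl5 and Ifng lie far above the diagonal.

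Effector genes that NK and T cells share stood apart between the cell types mainly in the KO library. Gzma reached 9179 CPM in WT T cells, above the 4075 CPM of WT NK cells, and at 3.72 CPM (2 UMIs) in KO T cells. Gzmb stood at 1377 CPM among WT and 31.7 CPM among KO T cells, Ccl5 at 6186 and 1307 CPM, Ccl4 at 351 and 46.5 CPM, and Ifng at 219 and 18.6 CPM. Each was lower in KO than in WT T cells and higher in KO than in WT NK cells. The T cells differed in kind between the libraries, since 115 of 178 WT and 19 of 80 KO T cells had a UMI of Cd8a, Gzma, Gzmb or Prf1. Over these 115 and 19 cells, a set chosen in part by effector transcripts, the log2 ratios of KO to WT were -3.98 for Ccl4, -2.45 for Ccl3, -2.55 for Ccl5 and -2.93 for Ifng. Gzma and Gzmb helped to choose the set and are not read in it.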

How the data were processed

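Per the labels, cells of the colon lamina propria were sorted live and captured with 10x Genomics droplets. The authors deposited unnormalised UMI counts, by gene and barcode. The file headers name Cell Ranger 3.0.2, and the submitters' processing notes name Seurat 4 and mm10. Genes per cell, mitochondrial share and the marker rule were computed from these counts (Python 3.11.15, numpy 2.4.6, scipy 1.17.1, pandas 2.3.3). The study's Poisson test over cells was not used, and no doublet caller was run. The members and gene lists were chosen with earlier results of these data known.

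UMIs were summed over cells of a set and divided by the set's total. Genes named by size had at least 30 UMIs and a UMI in at least 5 cells of the higher library, 10 from each end; for NK against T cells the 15 highest and 10 lowest by the weaker library were named, without antigen receptor segments. Other genes are members of the fixed lists, and some items are not reported here. Ratio intervals are exact conditional binomial, share intervals Clopper-Pearson, and the scripts were tested on simulated data. B cells had at least 3 UMIs of Cd79a, Cd79b and Ms4a1, C1q macrophages at least 5 of C1qa, C1qb and C1qc. UMIs of 3 counts served as the limit for a count of 0. Sequences are from RefSeq (GRCm38.p6). The alternatives changed the marker sum, the Cd3 limit, the cell filter, the weight of each cell, the added CPM and the UMI minimum.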

Additional observations from a re-analysis of the deposited data

Results flagged for a closer look

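The 71 genes followed were named by size or picked for the text. For 5 of them, KO and WT differed at least 2-fold in opposite directions in NK cells and in T cells, with both intervals off 0. These conditions are what marked them, and the share of all genes that meet them was not counted. With 1 library per genotype the difference was not tested. Gzma missed the 2-fold limit in NK cells, at a log2 ratio of 0.91, and had 9639 UMIs in WT and 2 UMIs in KO T cells. The log2 ratio of KO to WT in NK cells minus that in T cells was 7.05 for Ccl4, 6.31 for Gzmb, 5.36 for Ccl3, 5.03 for Ifng and 4.40 for Ccl5. The T cell ratios behind these were -2.68, -5.06, -1.73, -3.00 and -2.23. They compare T cells that differed in kind, with a UMI of Cd8a, Gzma, Gzmb or Prf1 in 115 of 178 WT and 19 of 80 KO T cells.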

How the results depend on the processing

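No paired analysis was possible because each genotype has 1 library. The NK share was 12.3% in WT and 31.0% in KO when only NK and T cells were counted, and within its interval under every other definition of the cells. The log2 ratio of the shares ran from 0.57 to 1.33. Its interval left out 0 without the 5 mixed WT cells (0.07 to 1.76), a removal from WT only that could only raise the ratio. The count of genes at least 2-fold higher in KO was 75 with a minimum of 50 UMIs and 795 with a minimum of 1, and the count at least 2-fold lower was 65 and 1984. The lower count also fell to 145 with the stricter cell filter (500 genes, 10% mitochondrial), to 113 without the deepest 5% of NK cells and to 100 without the mixed WT cells. The number of genes tested changes with the UMI minimum and can only fall when cells are left out. These counts are therefore not shares of the 2710 genes. Against T cells, a minimum of 50 UMIs gave 52 genes higher and 73 lower in NK cells, and use of cytotoxic T cells only gave 48 lower. Gzmc turned from -0.91 to 0.45 without the deepest cells and to 0.16 without the mixed WT cells, where Trbc2 turned to 0.30. All 20 genes picked by size kept their sign under the 9 alternatives run for them, and Ccl4 ran from 3.51 to 4.52, Ccl3 from 2.89 to 3.62, Ccl5 from 1.62 to 2.27 and Ifng from 1.45 to 2.10. Of all 71 genes followed, 64 kept their sign. Besides Gzmc and Trbc2, the sign changed under at least 1 alternative for Klra4, Klra8, Klrk1, Trbc1 and H2-K1. A gene needs 3 counts to be seen here, a level of 16.3 CPM (WT) or 17.6 CPM (KO), so most receptors and cytokines under 20 UMIs cannot be compared.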

Other observations

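Proliferation was thin in both sets. Of the 7 tested cell cycle genes 3 were at least 2-fold lower in KO, against 8.52% of all genes, Mki67 with 28 and 2 UMIs, Top2a with 18 and 3, and Stmn1 with 60 and 10. The WT UMIs of Mki67 came from 6 cells, 50% of them from 1, and 3 WT and 2 KO cells had at least 2 UMIs of Mki67 and Top2a together. Pcna, the replication clamp, had 73 and 85 UMIs.

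Immediate early and stress genes, which can rise while a tissue is dissociated, did not move together. Among 16 tested, 3 were at least 2-fold higher in KO, 3 lower and 10 in between, against 6.72% and 8.52% of all genes, with a median log2 ratio of -0.05. Fos and Jun had log2 ratios of -1.04 and -1.21 with all members and of -0.12 and -0.27 with the 20 WT cells. Interferon response genes were mostly too low to compare, with 3 of 20 tested. Isg15 had 16 and 35 UMIs. Of the 10 genes of the class I list 1 was at least 2-fold lower in KO, the immunoproteasome subunit Psmb9 with 18 and 5 UMIs, and 0 were higher, near the shares over all genes. H2-D1, a ligand of Ly49 receptors, stood at 1744 and 2623 CPM, and B2m at 3831 and 3349 CPM, a log2 ratio of -0.19 with all members and of -0.43 with the 20 WT cells.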
